A study of Mus musculus with 12 samples.

Results

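Transcripts of 9 genes that control proteolysis around the cell were followed in sorted mouse liver tumor organoid cells: the plasminogen activators *Plau* (uPA) and *Plat* (tPA), the uPA receptor *Plaur*, the inhibitor *Serpinb2* (PAI-2), the matrix metalloproteinases *Mmp7*, *Mmp10*, *Mmp13* and *Mmp14*, and the metalloproteinase inhibitor *Timp1*. They were taken by name from the 47069 genes of the count table, whose Ensembl identifiers were matched to mouse symbols, and 7 of the 9 passed the filter on low counts. The cells came from liver cancer organoids of C57BL/6 background with the genotype LGR5-DTRGFP+, in which the *Lgr5* locus drives GFP and the diphtheria toxin receptor. All 4 groups carried this allele. Cells were sorted by FACS into LGR5+ (GFP-positive) and LGR5- (GFP-negative) cells, either untreated or after 5-fluorouracil (5-FU), a drug that blocks thymidylate synthesis, with 3 libraries per group and 12 in all. The dose and time of 5-FU for these libraries, the organoid lines behind them, and whether replicates were separate cultures are not given in the sources used here, so the *P* values below measure the spread between these libraries. The organoids were grown from liver tumors induced with diethylnitrosamine (DEN), and the sort left out dead cells by propidium iodide and leucocytes by CD45.

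Plasminogen activators cut plasminogen into plasmin, a broad protease that digests fibrin and matrix and activates other proteases. uPA does so while held on the cell surface by its receptor, and tPA mostly on fibrin, and both are held back by serpins such as protease nexin-1 (*Serpine2*) and, for uPA, PAI-2. Matrix metalloproteinases (MMPs) are zinc enzymes that cut collagens, laminins and surface proteins and are blocked by the TIMPs. MMP7, or matrilysin, is the small MMP made by epithelial cells, including injured bile duct epithelium, whereas MMP10 and MMP13 are a stromelysin and a collagenase.

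Libraries held 13750591 to 19323514 counted reads. The level that 3 reads stand for, taken as the limit of a count of 0, was 0.165 to 0.220 CPM, the read count scaled to library size. The mitochondrial share of reads was 1.47% to 3.08% in 10 libraries, but 6.93% and 6.44% in LGR5- replicate 3, untreated and 5-FU. *Lgr5* itself did not separate the sorts: untreated LGR5- libraries had 419 to 649 reads and LGR5+ libraries 380 to 476 (log2 difference -0.17, adjusted *P* = 1, edgeR). After 5-FU they had 312 to 490 and 465 to 487 (0.11, adjusted *P* = 0.842), so the populations are named here by their sort labels. The 6 biliary markers summed to 1142 to 1647 CPM in untreated, 2751 to 6689 in treated LGR5- and 6511 to 10490 in treated LGR5+ libraries, and 2 of the 5 tested were higher after 5-FU in each population (*Krt19* had 6169 to 76666 reads, *Sox9* 2150 to 6307 and *Cftr* at most 9). The 6 hepatocyte markers summed to 10.6 to 22.4 CPM in untreated and 25.97 to 56.5 in treated libraries, and 1 of the 2 tested was higher in each population (*Afp* had 178 to 966 reads, *Alb* 2 to 33, *Apoa1* at most 11, *Hnf4a* and *Cps1* at most 2 and *Ttr* at most 1). Of all tested genes, 9.66% were higher after 5-FU in LGR5+ and 8.30% in LGR5- cells. The part of these markers in the results below was not tested.

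Of the 9 genes, 5 rose after 5-FU in LGR5+ cells and 4 in LGR5- cells. *Mmp7* and *Serpinb2* rose most, *Plau* and *Plaur* by 3- to 5-fold, and *Plat* by 2.04-fold in LGR5+ cells. *Timp1* did not pass the test in either population, *Mmp14* did not pass it either, and *Mmp10* and *Mmp13* were at the limit of detection in every library. A gene was called at an adjusted *P* under 0.05 in edgeR's quasi-likelihood test over all 16157 genes tested. In LGR5+ cells 5 of the 7 tested genes were called higher, where 9.66% of all tested genes were higher, and 0 were lower, where 6.37% were. In LGR5- cells 4 were called higher, against 8.30% of all tested genes, and 0 lower, against 7.11%. The median log2 fold change of the 7 genes was 2.30 in LGR5+ and 1.71 in LGR5- cells, while the median over all tested genes was -0.02 and -0.05. In the libraries themselves, 5 of the 7 genes lay higher after 5-FU without overlap between the groups in LGR5+ cells, as did 22.3% of all tested genes. In LGR5- cells 5 also did (*Mmp14* in place of *Plat*), against 13.7%. *Serpinb2* and *Mmp14* passed the filter on low counts only through the treated libraries and were not tested in a fit of the untreated libraries alone, so the counts and medians over the 7 genes are a description. Without both LGR5- replicate 3 libraries, 5 genes were called in each population, where 4448 and 2741 of 16182 tested genes were called in either direction.

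**Figure D1:**
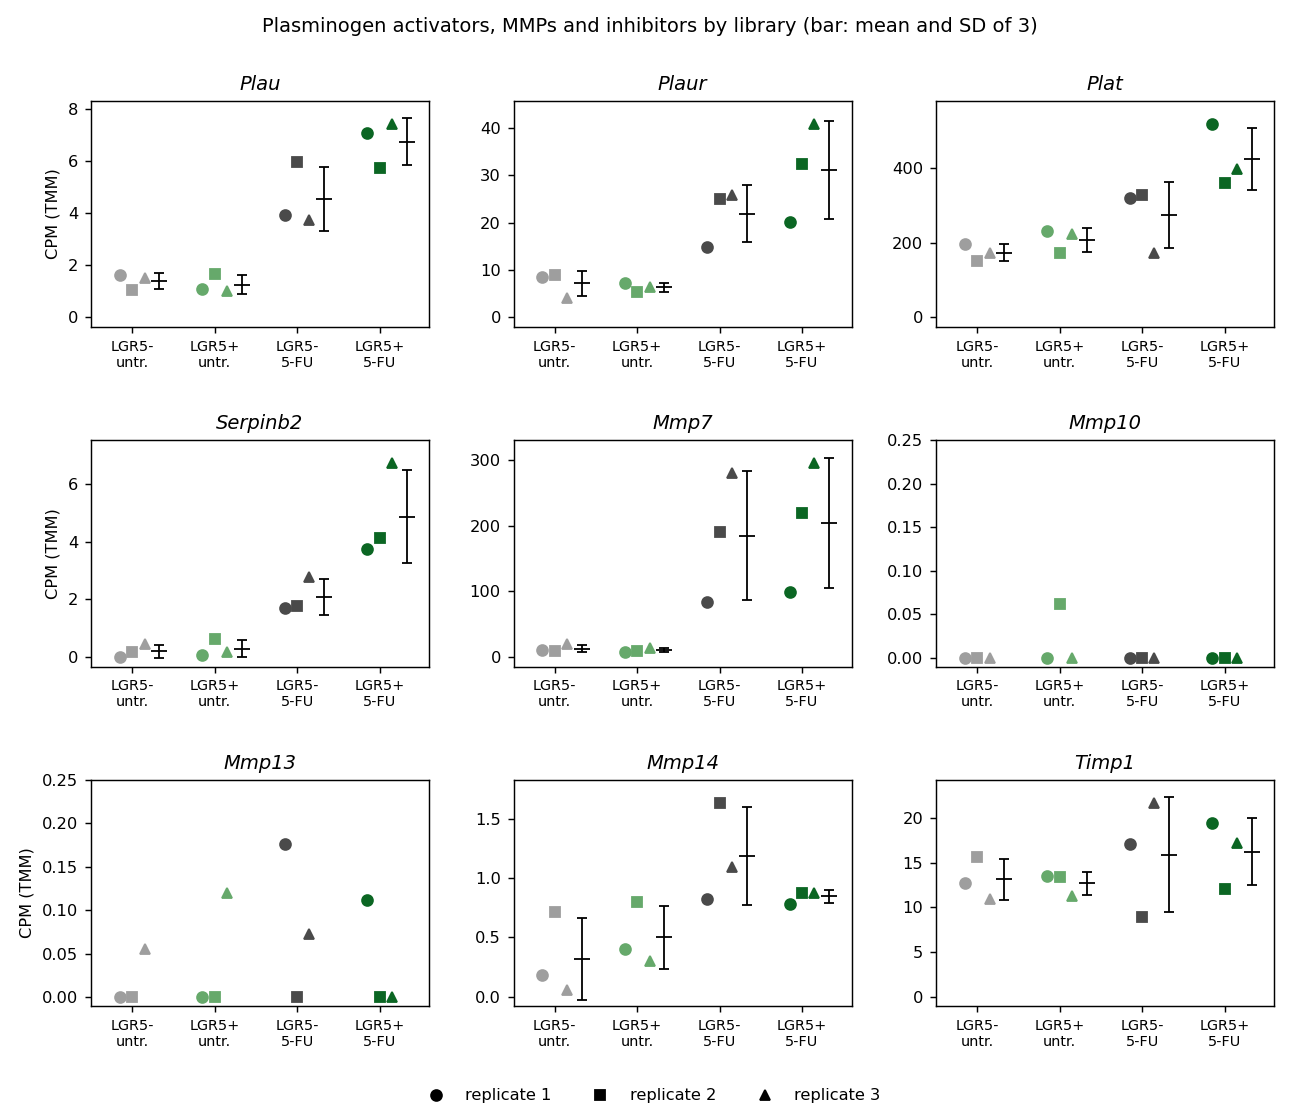
Normalized level (CPM after TMM scaling, linear axis, a scale of its own for each gene) of the 9 genes in each of the 12 libraries. Marker shape gives the replicate number, and the black bar gives the mean and SD of 3 libraries except for *Mmp10* and *Mmp13*, whose counts are too low. After 5-FU, *Mmp7* reached 84.0 to 296 CPM from at most 19.2, whereas the *Timp1* groups overlapped.

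*Plau* (ENSMUSG00000021822; GRCm38 chromosome 14, 20836660 to 20843385, plus strand), which encodes uPA, had 1.64, 1.04 and 1.499 CPM in untreated LGR5- libraries and 1.10, 1.66 and 1.02 in untreated LGR5+ libraries. With 5-FU it reached 3.94, 5.97 and 3.74 CPM in LGR5- and 7.08, 5.72 and 7.42 in LGR5+ libraries. Every treated library lay above every untreated one, and in LGR5- cells replicate 2 was the highest of the treated libraries. The log2 fold change was 2.42 (SE 0.33, adjusted *P* = 1.88e-04, edgeR) in LGR5+ and 1.71 (SE 0.32, adjusted *P* = 0.00302) in LGR5- cells, or 5.34-fold and 3.27-fold. It was called under all 14 alternatives in both populations.

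*Plaur* (ENSMUSG00000046223; chromosome 7, 24462484 to 24475968, plus strand), the receptor that holds uPA on the cell surface, had 4.05 to 8.998 CPM in the 6 untreated libraries. After 5-FU it had 15.0, 24.9 and 25.8 CPM in LGR5- and 20.2, 32.4 and 40.9 in LGR5+ libraries. The treated and untreated libraries did not overlap, and replicate 1 was the lowest of each treated group. It rose by 2.30 on the log2 scale (SE 0.33, adjusted *P* = 2.88e-04, edgeR) in LGR5+ and by 1.61 (SE 0.32, adjusted *P* = 0.00419) in LGR5- cells, where it was 1.19 (adjusted *P* = 0.0217) without both replicate 3 libraries.

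*Plat* (ENSMUSG00000031538; chromosome 8, 22757727 to 22782844, plus strand), which encodes tPA, was by far the more abundant activator transcript. It had 196, 151 and 172 CPM in untreated LGR5- and 230, 171 and 222 in untreated LGR5+ libraries. Treated libraries had 321, 328 and 173 CPM in LGR5- and 519, 360 and 397 in LGR5+ libraries. In LGR5+ cells the groups did not overlap and it rose by 1.03 on the log2 scale (SE 0.25, adjusted *P* = 0.0112, edgeR), a call lost without untreated LGR5+ replicate 2 (0.91, adjusted *P* = 0.0616). In LGR5- cells replicate 3 after 5-FU, one of the libraries high in mitochondrial reads, stayed among the untreated values, and the log2 fold change was 0.66 (SE 0.25, adjusted *P* = 0.0888). Without that library it was 0.94 (adjusted *P* = 0.00962), and without both LGR5- replicate 3 libraries 0.90 (adjusted *P* = 0.0104). It also passed with all libraries in DESeq2 (0.68, adjusted *P* = 0.0386), and these were the 3 of 14 alternatives in which it passed. In the others it did not, with an adjusted *P* in edgeR of up to 0.258 and a log2 fold change as low as 0.51. Per kilobase of exon, *Plat* made up 97.9% ± 0.24 (SD, n = 3) of the summed *Plau* and *Plat* level in untreated LGR5- and 98.4% ± 0.74 in untreated LGR5+ cells. After 5-FU the share was 95.6% ± 1.15 and 95.9% ± 0.61, below every untreated library (two-sided exact permutation test, *P* = 0.1 in each population, the smallest that 3 against 3 libraries can give).

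*Serpinb2* (ENSMUSG00000062345; chromosome 1, 107511423 to 107535478, plus strand), which encodes the uPA inhibitor PAI-2, was near the limit of detection without the drug. It had 0, 3 and 8 reads in untreated LGR5- and 1, 10 and 3 in untreated LGR5+ libraries. Treated libraries had 29, 30 and 38 reads (1.71, 1.76 and 2.79 CPM) in LGR5- and 67, 75 and 115 reads (3.77, 4.13 and 6.72 CPM) in LGR5+ libraries. No library of one treatment overlapped the other, and every treated LGR5+ library lay above every treated LGR5- library. The log2 fold change was 4.08 (SE 0.72, adjusted *P* = 0.00144, edgeR) in LGR5+ and 3.28 (SE 0.75, adjusted *P* = 0.00847) in LGR5- cells. With so few untreated reads the size depended on single libraries: the LGR5- value was 4.22 (adjusted *P* = 0.00586) without both replicate 3 libraries and 4.48 (adjusted *P* = 0.00257) without untreated replicate 3 alone, and the LGR5+ value was 5.29 (adjusted *P* = 0.00163) without untreated replicate 2. It shares 291 exon bases with *Serpinb10* on the same strand, which had 0 to 7 reads per library, so reads of the pair could have been split between them.

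*Serpine2*, which encodes the activator inhibitor protease nexin-1, rose from 114.5 ± 18.74 to 602.9 ± 100.9 CPM (SD, n = 3) in LGR5- and from 136 ± 10.4 to 969.8 ± 125.9 CPM in LGR5+ cells. The log2 fold changes were 2.40 (adjusted *P* = 8.36e-06, edgeR) and 2.83 (adjusted *P* = 1.93e-06). Per kilobase of exon it was at 72.8 CPM per kb in treated LGR5- and 117 in treated LGR5+ cells, where *Serpinb2* was at 0.887 and 2.07.

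**Figure D2:**
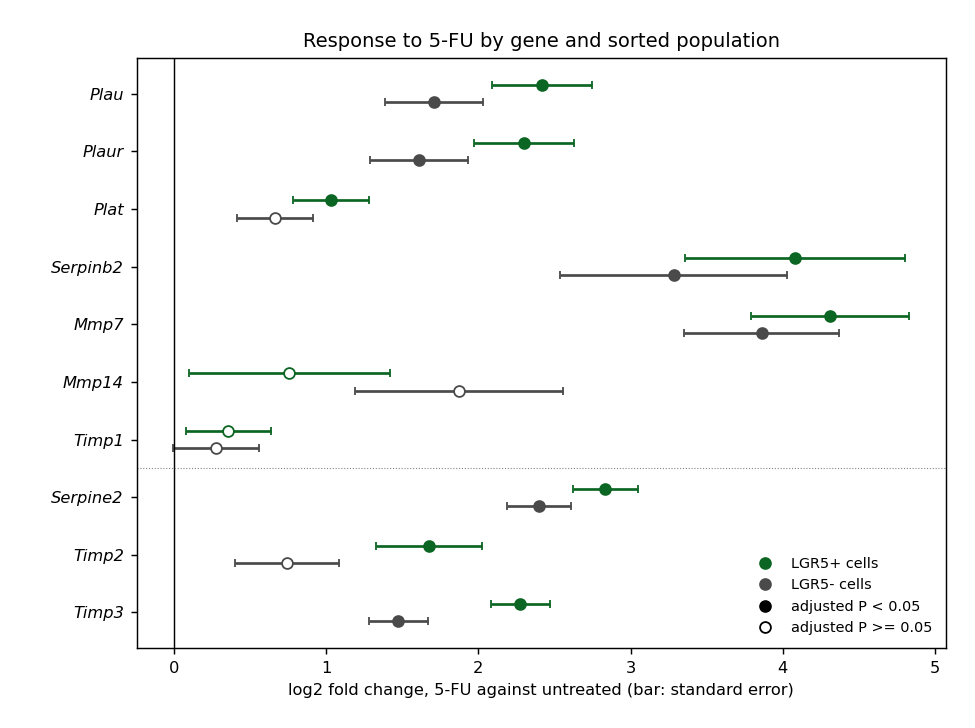
Log2 fold change (5-FU against untreated, x axis) of the 7 tested genes and, below the dotted line, of *Serpine2*, *Timp2* and *Timp3*, in LGR5+ (green) and LGR5- (grey) cells. Bars are standard errors and filled points passed an adjusted *P* of 0.05. *Mmp7* and *Serpinb2* lie farthest to the right and *Timp1* lies at 0.36 and 0.28.

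*Mmp7* (ENSMUSG00000018623; chromosome 9, 7692090 to 7699585, plus strand), which encodes matrilysin, was with *Serpinb2* 1 of the 2 members with the largest fold changes. It had 10.4, 8.61 and 19.2 CPM in untreated LGR5- and 7.85, 9.16 and 13.9 in untreated LGR5+ libraries. After 5-FU it had 84.0, 190 and 281.5 CPM (1428, 3251 and 3837 reads) in LGR5- and 98.6, 220 and 296 CPM (1753, 3998 and 5054 reads) in LGR5+ libraries. Replicate 3 was the highest library of each of the 4 groups. The treated libraries of each population differed about 3-fold among themselves, yet the lowest of them was over 4 times the highest untreated library. The log2 fold change was 4.31 (SE 0.52, adjusted *P* = 1.00e-04, edgeR) in LGR5+ and 3.86 (SE 0.51, adjusted *P* = 2.91e-04) in LGR5- cells, or 19.8-fold and 14.5-fold. Leaving out 1 library at a time gave 3.95 to 4.65 and 3.46 to 4.28. The antisense gene *AV064505*, which shares exon bases with *Mmp7*, had at most 2 reads.

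*Mmp10* (ENSMUSG00000047562; chromosome 9, 7502352 to 7510240, plus strand) had 1 read in untreated LGR5+ replicate 2 and 0 in the other 11 libraries. *Mmp13* (ENSMUSG00000050578; chromosome 9, 7272514 to 7283331, plus strand) had at most 3 reads in any library and 9 in all. Any change in these 2 genes was below what the depth could show. *Mmp7*, *Mmp10* and *Mmp13* belong to a run of 10 *Mmp* genes in the count table on chromosome 9 between 7272514 and 7699585. Of the 9 besides *Mmp7*, the highest count in a library was 17 reads (*Mmp20*), and *Mmp3*, *Mmp8* and *Mmp12* had at most 7, 5 and 5. The 20513 reads of *Mmp7* over the 12 libraries thus stood beside 52 for *Mmp20*, the next of the run, where *Mmp20* was named after its values were seen.

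The stretch before the transcript start is shown for 5 members because they share a short element and differ widely in level. RefSeq promoter windows of GRCm38.p6, from 250 bases before to 50 after the start, were matched for 7 of the 9 genes, all but *Plau* and *Plat*. The AP-1 element TGANTCA, which reads the same on both strands, was in the window of 5 of these 7 genes, and in 8.97% of the 27025 genes with a window (7.81% of all 32851 windows). The last 100 bases before the start are shown for these 5, all on the plus strand, with the element in capitals, and 2 of them, *Mmp10* and *Mmp13*, are the genes with almost no reads.
*Mmp7*, chr9:7691990-7692089: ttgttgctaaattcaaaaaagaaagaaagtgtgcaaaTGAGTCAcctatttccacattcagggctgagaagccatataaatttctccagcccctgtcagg
*Mmp10*, chr9:7502242-7502341: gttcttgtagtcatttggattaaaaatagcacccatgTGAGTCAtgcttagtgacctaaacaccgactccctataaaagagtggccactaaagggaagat
*Mmp13*, chr9:7272414-7272513: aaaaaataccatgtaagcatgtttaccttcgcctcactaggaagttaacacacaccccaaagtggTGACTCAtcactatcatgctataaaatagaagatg
*Plaur*, chr7:24462383-24462482: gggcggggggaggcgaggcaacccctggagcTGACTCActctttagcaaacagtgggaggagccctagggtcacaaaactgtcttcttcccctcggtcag
*Serpinb2*, chr1:107511323-107511422: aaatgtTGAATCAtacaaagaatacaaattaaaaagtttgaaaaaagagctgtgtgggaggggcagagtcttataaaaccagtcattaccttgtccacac
The element began 63 bases before the start in both *Mmp7* and *Mmp10*, 35 before it in *Mmp13*, 69 in *Plaur* and 94 in *Serpinb2*. The windows of *Mmp14* and *Timp1* held no TGANTCA, and neither did that of a later *Mmp7* start. The ETS element AGGAAG, on either strand, was in 38.4% of the genes with a window (35.4% of all windows) and among the 7 genes in *Plaur*, *Mmp7*, *Mmp13*, *Mmp14* and *Timp1*, where it did not overlap TGANTCA. These are matches of letters, and binding was not measured.

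*Mmp14* (ENSMUSG00000000957; chromosome 14, 54431612 to 54445364, plus strand), which encodes the membrane enzyme MT1-MMP that activates pro-MMP2, was close to the limit of detection. It had 3, 13 and 1 reads in untreated LGR5- and 7, 13 and 5 in untreated LGR5+ libraries. With the drug it had 14, 28 and 15 reads in LGR5- and 14, 16 and 15 in LGR5+ libraries. The LGR5- groups did not overlap, with a log2 fold change of 1.87 (SE 0.68, adjusted *P* = 0.0789, edgeR), and the LGR5+ groups did (0.76, SE 0.66, adjusted *P* = 0.488). The LGR5- value passed the test in 3 of 13 alternatives. These were without untreated replicate 2 (3.27, adjusted *P* = 0.0161), with DESeq2 (1.91, adjusted *P* = 0.0438) and with the replicate number as a block (2.04, adjusted *P* = 0.0341). In the others it did not pass, with an adjusted *P* in edgeR of up to 0.234 and a log2 fold change as low as 1.37. Without both LGR5- replicate 3 libraries it was 1.43 (adjusted *P* = 0.156). *Mmp2* itself had at most 7 reads.

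*Timp1* (ENSMUSG00000001131; chromosome X, 20870166 to 20874735, plus strand), a secreted inhibitor of most MMPs, had 12.8, 15.6 and 11.0 CPM in untreated LGR5- and 13.5, 13.4 and 11.2 in untreated LGR5+ libraries. Treated libraries had 17.1, 8.96 and 21.7 CPM in LGR5- and 19.5, 12.1 and 17.3 in LGR5+ libraries. Replicate 2 was the lowest of each treated group, and the treated and untreated libraries overlapped. The log2 fold change was 0.36 (SE 0.28, adjusted *P* = 0.439, edgeR) in LGR5+ and 0.28 (SE 0.28, adjusted *P* = 0.570) in LGR5- cells, and over the alternatives it was 0.21 to 0.53 and -0.12 to 0.56. *Timp4* had no reads in any library. *Timp3*, which stays bound to the matrix, rose by 2.28 (adjusted *P* = 4.72e-06) in LGR5+ and by 1.47 (adjusted *P* = 1.87e-04) in LGR5- cells in the same edgeR fit. *Timp2* rose by 1.68 (adjusted *P* = 0.00437) in LGR5+ cells and had 0.74 (adjusted *P* = 0.166) in LGR5- cells, and the difference between these responses did not pass the test (0.93, adjusted *P* = 0.9998). Per kilobase of exon, *Timp1* was 61.6% ± 4.54 (SD, n = 3) of the summed TIMP and *Reck* level in untreated and 35.4% ± 7.53 in treated LGR5+ cells, without overlap (two-sided exact permutation test, *P* = 0.1). In LGR5- cells it was 60.6% ± 5.36 and 47.1% ± 15.5 (exact *P* = 0.2).

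With *Mmp7* rising and the rest of the family low, the MMP transcripts of these cells were mostly *Mmp7* after 5-FU. Over the 23 *Mmp* genes in the table, the summed level per kilobase of exon was 22.2 ± 5.15 CPM per kb (SD, n = 3) in untreated LGR5- and 20.3 ± 3.13 in untreated LGR5+ cells. After 5-FU it was 187 ± 93.2 in LGR5- and 209 ± 94.3 in LGR5+ cells. The share of *Mmp7* went from 52.0% ± 10.6 to 91.2% ± 4.42 in LGR5- and from 46.9% ± 7.58 to 90.6% ± 4.39 in LGR5+ cells, without overlap in either (two-sided exact permutation test, *P* = 0.1 each). The summed level of the 4 TIMPs and *Reck* on the same scale was 24.7 ± 5.33 and 23.4 ± 3.75 CPM per kb without and 37.4 ± 3.81 and 51.7 ± 5.53 with 5-FU in LGR5- and LGR5+ cells. *Mmp11* (27.7% and 29.7% of the untreated sum) and *Mmp15* (13.0% and 13.7%) came next and were named after their values were seen.

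**Figure D3:**
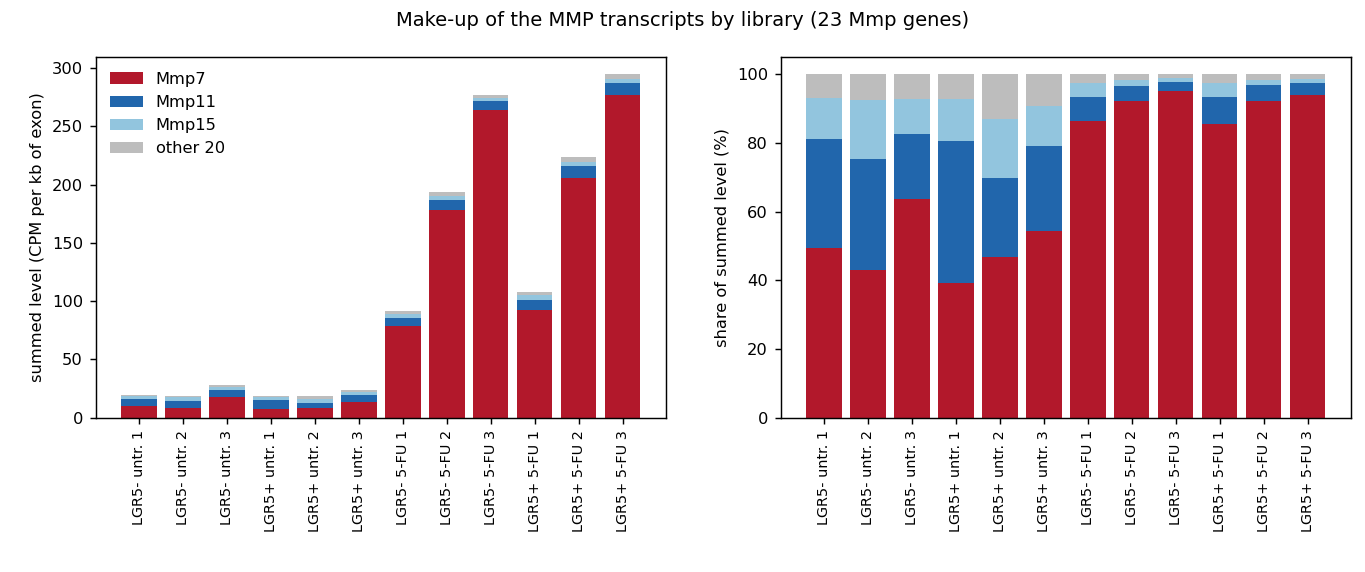
Summed level of 23 *Mmp* genes per kilobase of exon (left, CPM per kb) and the share of each part (right, percent) in the 12 libraries, with *Mmp7* in red, *Mmp11* in dark blue, *Mmp15* in light blue and the other 20 genes in grey. The *Mmp7* share was 39.3% to 63.7% in untreated libraries and 85.6% to 95.1% after 5-FU.

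*Mmp9*, which encodes gelatinase B, was removed by the filter, as were *Mmp2*, *Mmp3*, *Mmp8* and *Mmp12*, but unlike them it had more than 7 reads in some libraries. It had 7, 24 and 23 reads in 5-FU-treated LGR5+ libraries and at most 3 in each of the other 9. The 54 reads of the treated LGR5+ group were 12.8 times the 4 of the untreated LGR5+ group after scaling to library size (95% counting interval 4.72 to 48.7) and 12.1 times the 4 of the treated LGR5- group (4.48 to 46.2). These intervals are exact binomial ones and cover counting error only. In a fit without the filter the *Mmp9* log2 fold change in LGR5+ cells was 3.53 (adjusted *P* = 0.00951, edgeR), and the difference of treated LGR5+ from treated LGR5- cells was 3.43 (adjusted *P* = 0.181). Neutrophils, which store MMP9 and MMP8 and which the CD45 gate should remove, were looked for by 6 markers. *Ptprc*, which encodes CD45, had 3 to 13 reads in untreated, 21, 7 and 9 in treated LGR5- and 36, 5 and 11 in treated LGR5+ libraries. Of the 6 markers, *Csf3r* had 0 reads in every library, *Elane* at most 5, *Mpo* 8 to 18 and *Ly6g* 2 to 8 in untreated and 13 to 27 in treated libraries. Of the 4 tested, 3 were higher after 5-FU in LGR5+ and 1 in LGR5- cells, where 9.66% and 8.30% of all tested genes were. The summed level of these markers was 1.31 to 8.27 CPM in untreated and 8.49 to 51.1 in treated libraries, with up to 193 and 753 reads of *S100a8* and *S100a9*, which epithelial cells also make. In treated LGR5+ libraries *S100a9* had 265, 477 and 565 reads beside 7, 24 and 23 of *Mmp9*, and in treated LGR5- libraries 753, 41 and 152 beside 0, 1 and 3. The part of such cells in the *Mmp9* reads was not tested.

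Between LGR5+ and LGR5- cells none of the 7 tested genes passed the test, with or without the drug. No gene of all 16157 did (0% in either comparison in the edgeR fit). At an unadjusted *P* under 0.05 there were 214 genes in untreated and 2095 in treated cells, and DESeq2 called 0 and 80. In untreated cells the log2 differences of the 7 genes ran from -0.30 (*Mmp7*) to 0.63 (*Mmp14*), with an adjusted *P* of 1 each in edgeR. Leaving out 1 library at a time gave -0.57 to 0.12 for *Mmp7*, 0.14 to 2.03 for *Mmp14* and -0.77 to 1.63 for *Serpinb2*. After 5-FU the 7 differences ran from -0.48 (*Mmp14*) to 1.23 (*Serpinb2*, SE 0.60, adjusted *P* = 0.392). Their median was 0.51 against 0.03 over all tested genes. *Plat* (0.63, SE 0.25, adjusted *P* = 0.361) and *Serpinb2* were the 2 genes higher in every treated LGR5+ library than in any treated LGR5- library, as were 14.2% of all tested genes. The difference between the 2 responses to 5-FU passed for 0% of all genes (254 at an unadjusted *P* under 0.05, and 0 with DESeq2). For the 7 genes it was -1.12 (*Mmp14*, SE 0.95) to 0.80 (*Serpinb2*, SE 1.09), with an adjusted *P* of 0.9998 each. Both ends depended on single libraries. Leaving out 1 library at a time gave -2.51 to -0.62 for *Mmp14* and -0.39 to 2.01 for *Serpinb2*.

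Treated libraries with the same replicate number varied together. The deviations of same-numbered LGR5+ and LGR5- libraries from their group means correlated at 0.57, 0.22 and 0.30 over all tested genes. Those of different-numbered treated libraries correlated at -0.40 to 0.12. Deviations from a mean cancel within a group, so these values are not independent of the same-numbered ones. LGR5+ and LGR5- cells were therefore also compared within numbers. *Serpinb2* was higher in LGR5+ cells by 1.09, 1.18 and 1.23 on the log2 CPM scale in the 3 pairs. In a fit of the 6 treated libraries with the replicate number as a block, chosen after the data were seen, it was the 1 gene of the 7 that passed (1.14, SE 0.26, adjusted *P* = 0.0493, edgeR), among 451 genes in all. In the planned fit of all 12 libraries with that block it did not pass (1.21, adjusted *P* = 0.285), and 0 genes did. *Mmp7* differed by 0.23, 0.21 and 0.07 within pairs, far less than the 3-fold range between replicate numbers. *Plaur* differed by 0.43, 0.38 and 0.66 and *Plat* by 0.69, 0.13 and 1.20. Of the 7 genes, 4 were higher in LGR5+ cells in 3 of 3 treated pairs, as were 29.6% of all tested genes. *Timp2* (0.69, adjusted *P* = 0.0364) and *Timp3* (0.77, adjusted *P* = 0.0439) passed in the paired fit of the 6 treated libraries but not in that of all 12 (adjusted *P* = 0.253 and 0.174). *Timp3* also passed in DESeq2 with all 12 libraries and no block (0.82, adjusted *P* = 0.0232).

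**Figure D4:**
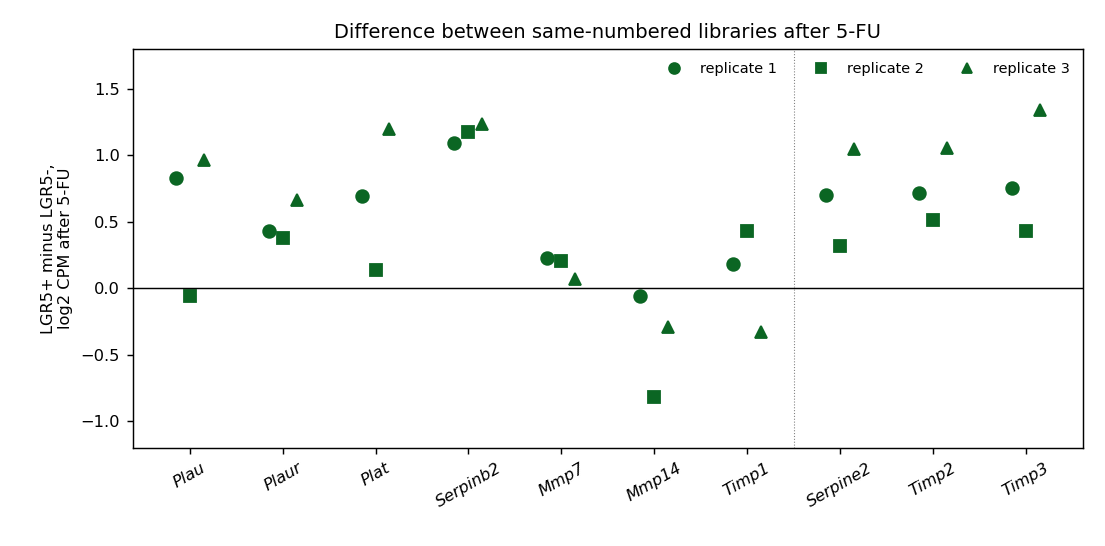
Difference in log2 CPM between LGR5+ and LGR5- libraries of the same replicate number after 5-FU (y axis) for the 7 tested genes and, right of the dotted line, *Serpine2*, *Timp2* and *Timp3*; marker shape gives the replicate number. The 3 *Serpinb2* points lie at 1.09 to 1.23, the *Mmp7* points at 0.07 to 0.23 and the *Mmp14* points at -0.82 to -0.06.

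The wider plasminogen list held 15 genes reported here, of which 14 were in the table and 10 were tested; *Plg*, which encodes plasminogen itself, had 0 reads in every library. Beside the members, 6 were tested, of which 3 were higher and 0 lower in each population, where 9.66% and 8.30% of all tested genes were higher in LGR5+ and LGR5- cells and 6.37% and 7.11% lower. The same shares stand beside the list counts that follow. *Anxa2* and *S100a10*, which form the annexin A2 complex that docks tPA and plasminogen at the surface, rose by 1.67 and 1.27 on the log2 scale in LGR5+ and by 1.10 and 1.22 in LGR5- cells, and were named after their values were seen. In the list of 28 MMPs and inhibitors, 10 genes beside the members were tested, of which 4 were higher and 1 lower in LGR5+ and 2 higher and 1 lower in LGR5- cells. Among the 4, *Mmp11* (0.72, adjusted *P* = 0.0318), lost its call with library size scaling (0.0589) and without LGR5+ untreated replicate 2 or 3 or 5-FU replicate 2 or 3 (0.0973 to 0.134). *Mmp24*, a membrane MMP, rose from 0.51 ± 0.17 to 5.90 ± 1.32 CPM (SD, n = 3; log2 fold change 3.50, adjusted *P* = 0.00108, edgeR) in LGR5+ cells and by 2.71 (adjusted *P* = 0.00684) in LGR5- cells, where it was 3.82 without untreated replicate 1 and 2.01 without 5-FU replicate 2. It is among the 4 and the 2 higher, but like *Serpinb2* and *Mmp14* it passed the filter on low counts only through the treated libraries, as did 3 of the 13 tested ADAM and ADAMTS genes and 2 of the 19 of the serine protease list below, so these list counts and medians are a description. *Mmp17*, another membrane MMP, fell by 1.26 (adjusted *P* = 0.0416) in LGR5+ and by 1.47 (adjusted *P* = 0.0269) in LGR5- cells in the same fit. Its call held in 7 of 13 alternatives in each population. It was lost without LGR5+ untreated replicate 2 or 3 or any 1 treated LGR5+ library, and without LGR5- untreated replicate 1 or 2 or 5-FU replicate 1 or 3 (adjusted *P* = 0.0507 to 0.154). It was also lost in LGR5+ cells with no filter (adjusted *P* = 0.0508), and in LGR5- cells with only the groups compared (0.1104) and without both replicate 3 libraries (0.0878).

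In a pair of further protease lists, every called gene except *Adam12* was higher after 5-FU. Of 19 tested genes in a list of serine proteases, their inhibitors and 3 lysosomal cathepsins, 14 were higher and 0 lower in LGR5+ cells, with a median log2 fold change of 1.08, and 9 were higher and 0 lower in LGR5- cells, with a median of 0.84. The 3 cathepsins, *Ctsb*, *Ctsl* and *Ctsd*, which are not serine proteases, are among the 14, and *Ctsd* is among the 9. *Prss22*, the protease tryptase epsilon that can activate pro-uPA, rose from 12.3 ± 3.71 to 64.6 ± 7.61 CPM (SD, n = 3; log2 fold change 2.40, adjusted *P* = 2.98e-05, edgeR) in LGR5+ cells. *Serpinb5*, the serpin maspin, rose by 2.17 (adjusted *P* = 3.31e-05) and *Ctsd*, the lysosomal protease cathepsin D, by 2.45 (adjusted *P* = 5.80e-05). In LGR5- cells *Prss22* rose by 1.83 (adjusted *P* = 3.45e-04, edgeR) and *Serpinb5* by 1.59 (adjusted *P* = 4.98e-04). There *Slpi*, an inhibitor of elastase, had the smallest adjusted *P* of the list, with 2.21 (adjusted *P* = 1.62e-04). Of 13 tested ADAM and ADAMTS genes, 5 were higher and 0 lower in LGR5+ and 3 higher and 1 lower (*Adam12*) in LGR5- cells, or 38.5% and 23.1% higher. *Adam8* rose by 4.09 (adjusted *P* = 7.40e-05) and 2.74 (adjusted *P* = 0.00199), and *Adamts1*, a proteoglycan-cleaving protease, by 2.009 and 1.801. Untreated *Adam8* levels were 0.52 ± 0.40 CPM in LGR5+ and 0.53 ± 0.37 in LGR5- cells. *Adam8* is among the 3 genes of this list that passed the filter on low counts only through the treated libraries, so its values are a description. *Adam15* rose by 0.74 (adjusted *P* = 0.00324, edgeR) in LGR5+ cells. In LGR5- cells *Adam19* rose by 1.27 (adjusted *P* = 0.0156) and *Adam12* fell by 1.90 (adjusted *P* = 0.0112).

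Of 15 tested genes in a list of laminin-332 chains, integrins, other adhesion genes and the growth factors *Hbegf* and *Tgfb1*, 7 were higher and 0 lower in LGR5+ and 6 higher and 0 lower in LGR5- cells, with medians of 0.89 and 0.66. *Lamb3*, a chain of laminin-332, rose by 1.76 (adjusted *P* = 5.02e-05, edgeR) in LGR5+ and by 1.06 (adjusted *P* = 0.00311) in LGR5- cells. *Itgb6*, the integrin subunit that activates latent TGF-beta, rose by 1.40 (adjusted *P* = 1.64e-04) in LGR5+ and by 1.09 (adjusted *P* = 0.00161) in LGR5- cells. *Cd44*, a hyaluronan receptor that can hold MMP7 at the surface, had the smallest adjusted *P* of the list in LGR5- cells, with 1.72 (adjusted *P* = 3.91e-04), and rose by 1.66 (adjusted *P* = 3.81e-04) in LGR5+ cells. The 5 epithelial markers summed to 3095 to 4259 CPM in untreated libraries. Treated LGR5- libraries had 4955 to 10960 CPM and treated LGR5+ libraries 11030 to 15630. All 5 were tested, and 4 were higher after 5-FU in LGR5+ and 3 in LGR5- cells, against 9.66% and 8.30% of all tested genes. *Krt19* is counted both here and in the biliary sum. Of the other cell types sought, 8 fibroblast markers summed to 48.3 to 50.2 CPM in untreated and 26.2 to 42.8 in treated LGR5+ libraries, without overlap, and to 41.0 to 50.04 and 43.1 to 60.9 in LGR5- libraries. *Lum* and *Thy1* were at 0 and *Dcn* at 430 to 870 reads, and 1 of the 2 tested was lower in each population. The 6 endothelial markers summed to 2.36 to 4.72 CPM in untreated and 2.92 to 6.30 in treated libraries, with *Emcn* at 0, and 0 of the 2 tested were called. The 8 macrophage markers summed to 32.1 to 66.5 CPM in untreated and 45.3 to 115 in treated libraries, with *Csf1r* at most 11 reads, *Cd14* at 418 to 1077 and *Cd68* at 98 to 212 in untreated and 283 to 932 in treated libraries, and 1 of the 3 tested was higher in each population. The part of these markers in the results was not tested, and in such bulk libraries fewer cells of a type and less RNA per cell cannot be told apart.

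**Figure D5:**
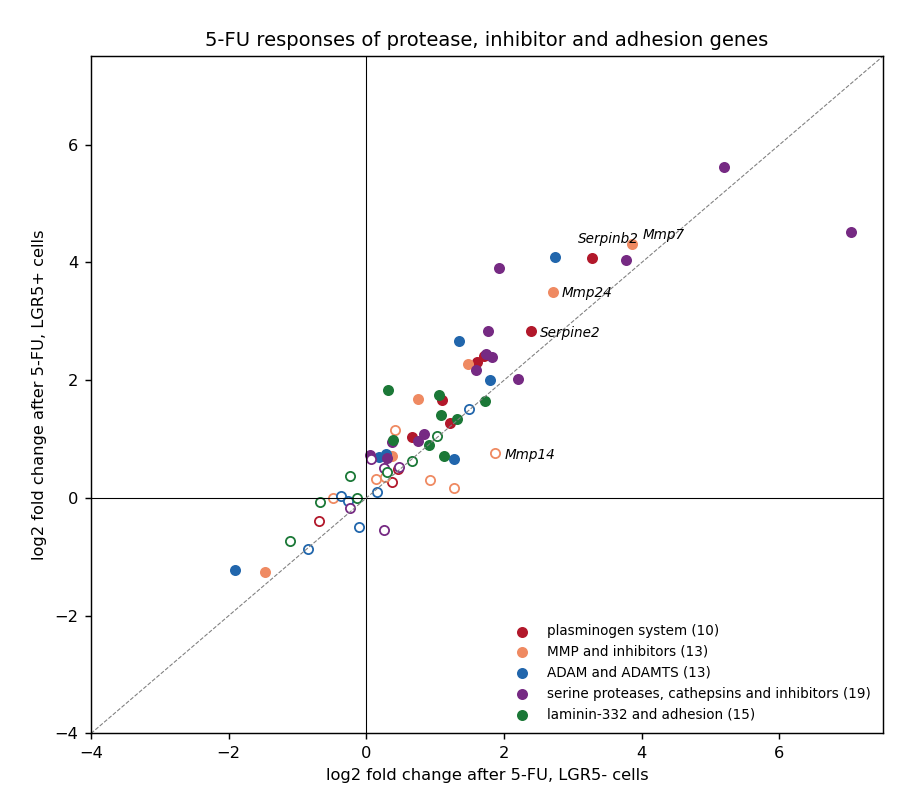
Log2 fold change after 5-FU in LGR5- (x axis) and LGR5+ cells (y axis) of the tested genes of the 5 lists, colored by list with the number tested in brackets; filled points passed an adjusted *P* of 0.05 in at least 1 population, and the dashed line marks equal change. *Mmp7* and *Serpinb2* lie far up the line, and *Mmp14* lies below it at 1.87 and 0.76. *Klk6* (5.19 and 5.61) and *Klk7* (7.03 and 4.51) lie farther out than these members, and *Klk8* (3.77 and 4.04) lies near them. These serine proteases are not labeled in the plot and were named after their values were seen. *Klk6* and *Klk7* passed the filter on low counts only through the treated libraries.

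Across the 12 libraries, which share the contrast of treated and untreated cells, the genes whose log2 CPM followed a member most closely were listed by Pearson's r, as a description. For *Mmp7* they were *Gm19589*, *Aga* and *Akr1b10* (0.99 each), for *Plaur* *Atp6v1d*, *Ramp1* and *Tmtc3* (0.99 each) and for *Plau* *Psapl1*, *Ndnf* and *S100a14* (0.98 each). For *Serpinb2* they were *Cysrt1*, *AC168977.1* and *BC100530* (0.98 each), and for *Plat* *Cast*, *Nfkbie* and *Slc37a1* (0.96 to 0.97). *Mmp14* was followed by *Nfkbia* (0.95), *Ccs* and *Retreg1*, and *Timp1* by *Tinag* (0.92), *Agr2* and *Dnajc16*. Among the members, r was 0.82 to 0.92 between *Plau*, *Plaur*, *Serpinb2* and *Mmp7*, and 0.14 to 0.38 between *Timp1* and the others.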

How the data were processed

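RNA of sorted cells was amplified with a SMART-Seq kit and sequenced as paired reads. The deposited table holds the authors' raw read counts per Ensembl gene, 12 columns in all, with no other sample's columns (0 unused). The submitters' processing notes name HISAT2, HISAT, TopHat2 and HTSeq and the build mm8, without versions or roles; whether strand was used in counting is not given in the sources used here. Gene symbols, positions and exon lengths come from GENCODE M21 on GRCm38, and promoter windows from RefSeq on GRCm38.p6; they may differ from the annotation used for counting. Symbols were found for 46574 of 47069 genes.

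Counts were fitted with edgeR 4.0.16 (R 4.3.3): filterByExpr by group (16157 genes kept), TMM scaling, robust quasi-likelihood fit of 4 group means over all 12 libraries, and Benjamini-Hochberg adjustment over all genes tested. CPM values are TMM-scaled, and r used log2 CPM with a prior count of 2. Levels per kilobase divide CPM by the length of all exons of a gene joined. Exact permutation tests used scipy 1.17.1. The alternatives were DESeq2 1.42.0, other scalings and filters, fitting only the groups compared, the replicate number as a block, and leaving out libraries. The members and lists were chosen with earlier results of these data known. Named genes are the 9 members, the 3 higher and 3 lower called genes of smallest adjusted *P* per list and 5-FU comparison, *Serpine2*, 5 MMPs and 2 TIMPs, and the 3 genes most like each tested member; others are named as seen afterwards. Of the genes listed for the analysis, 1 in the plasminogen list and 1 in the laminin-332 and adhesion list are not reported here and are left out of the counts, medians and plots of these lists. Replicate numbers were taken as pairs only between treated LGR5+ and LGR5- libraries, where all 3 same-numbered correlations passed 0.1. Treated LGR5- replicate 3 and LGR5+ replicate 2 also passed it (0.12), so this limit does not separate pairs from other libraries. Libraries of 1 group differed by more than the sampling noise, with a chi-square per degree of freedom of at least 16.7.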

Additional observations from a re-analysis of the deposited data

How the results depend on the processing

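Over 35 values for the members (7 genes, 5 comparisons), 520 alternative values were computed: 512 kept the side of the threshold, 1 lost a call, 7 gained one and 0 calls changed sign. *Plau*, *Plaur*, *Serpinb2* and *Mmp7* kept both calls under every alternative that tested them; *Serpinb2* and *Mmp14* fell out of the fit under a minimum of 10 reads per library. Between treated LGR5+ and LGR5- cells the count of called members was 0 to 1: the 1 came with the 6 treated libraries fitted with the replicate block, chosen after seeing the data. In the planned fit of 12 libraries with the replicate block, 5, 5, 0, 0 and 0 members were called in the 5 comparisons, and over all genes 2967 and 2890 in the 2 responses. Leaving out 1 library gave 4 to 5 members in the LGR5+ and 4 to 5 in the LGR5- response. Calls over all genes moved more. For the LGR5+ response 2590 became 1168 with other thresholds (here a log2 fold change beyond 1.5 in size, with *P* below 0.05 before adjustment), 4045 with only the 6 libraries compared, 4448 without both LGR5- replicate 3 libraries, 1586 without untreated replicate 3, and 1451 and 1373 without 5-FU replicate 2 or 3. For the LGR5- response 2489 became 1131 with those thresholds, 1282 with only the libraries compared, 1562 and 1645 without untreated replicate 1 or 2, and 1647 without 5-FU replicate 2. Between treated populations 0 became 11 without a filter, 80 with DESeq2, 274 with those thresholds and 451 with the treated libraries and the replicate block; between untreated populations those thresholds gave 74 and for the difference of responses 69. The cause was not tested. Low counts limit *Serpinb2*, *Mmp9* and *Mmp14*, and 3 libraries a group limit all comparisons.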
